A study of Homo sapiens with 6 samples.

Results

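The 44 genes described here encode the proteins of the sarcomere, the contractile unit of skeletal and cardiac muscle, together with proteins of the muscle calcium store and the 4 myogenic transcription factors. They were listed by gene symbol, and each symbol matched 1 of the 23615 rows of the deposited gene table. RNA came from H1 cells, an established human embryonic stem cell line, which received 0.5 nM BMP-4 for 3 days and then serum at 10% from day 4, so that they were specified toward ectoderm by day 10. The paper's methods describe this differentiation as heterogeneous, with cells that express mesoderm genes as well as ectoderm genes. The 3 DAPT libraries came from cells kept in 5 μM DAPT throughout. DAPT blocks γ-secretase, the protease that frees the intracellular domain of Notch receptors and also cuts other membrane proteins. The 3 ethanol libraries came from cells given the vehicle only. Every group thus rests on 1 cell line, 1 BMP-4 and serum regime and 1 time point, and the labels do not say whether the libraries of a treatment came from separate cultures. For each gene the authors deposited 1 level per treatment in FPKM, which is the number of fragments scaled to the length of the transcript and to the mapped fragments of the library, taken over the libraries of that treatment. Levels in FPKM can therefore be compared between genes. Depth and the spread between libraries are unknown, so the differences given here have no replicate check, no error and no test. A ratio is always DAPT over ethanol on the log2 scale without a pseudocount, and a gene is called past 2-fold when that ratio lies beyond 1 in either direction. The deposited workbook names the treatments in opposite ways in its sheets for the same values (1417 of 1417 shared rows), and the names of the sheet of changed genes were used. With the other naming every direction below would turn round. Under the naming used, the pluripotency gene POU5F1 had 47.3 FPKM under DAPT, against 240 FPKM under ethanol, and the surface ectoderm gene TFAP2A had 21.8 FPKM under DAPT, against 7.10 FPKM under ethanol.

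In a sarcomere, thick filaments of myosin heavy and light chains pull on thin filaments of α-actin, and the troponin complex on the thin filament opens the binding sites when calcium is released through ryanodine receptors from a store buffered by calsequestrin. The Z-disc anchors thin filaments through α-actinin, titin and nebulin act as molecular rulers, and desmin links neighbouring Z-discs. Most of these proteins exist as paralogs for cardiac, slow and fast muscle, and early embryonic muscle often holds paralogs that the mature tissue later replaces. In cultured embryonic stem cells they are known mainly as markers of mesoderm that has entered a cardiac or skeletal muscle fate.

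The culture as a whole carried several epithelial, fibroblast and smooth muscle markers at high levels and very little of the genes that define mature striated muscle. The simple keratin genes KRT8 (961 FPKM under DAPT, against 876 FPKM under ethanol) and KRT18 (846 FPKM under DAPT, against 687 FPKM under ethanol) were among the abundant mRNAs. So were the fibroblast marker COL1A1 (386 FPKM with DAPT, 408 with ethanol) and the smooth muscle marker TAGLN (994 FPKM with DAPT, 908 with ethanol). The other smooth muscle markers ran from ACTA2 (297 FPKM with DAPT, 189 with ethanol) down to MYH11, under 1 FPKM in both treatments (0.638 FPKM with DAPT, 0.522 with ethanol). MYOCD was also low (1.73 FPKM with DAPT, 1.77 with ethanol). Of other epithelial markers, CDH1 was higher with DAPT (67.3 FPKM, 41.7 with ethanol) and EPCAM lower (66.2 FPKM, 95.1 with ethanol). Of 7 cardiomyocyte markers, 2 reached 1 FPKM. These were NPPB, the gene of the B-type natriuretic peptide, at 127 FPKM under DAPT, against 170 FPKM under ethanol, and the mesodermal factor HAND2 at 9.44 FPKM under DAPT, against 11.9 FPKM under ethanol. NKX2-5, TBX5, NPPA, PLN and MYH6 were below 1 FPKM in both treatments. Summed, the 7 markers came to 137 FPKM under DAPT, against 183 FPKM under ethanol. Of 5 skeletal myoblast markers only PAX3, which neural crest and dorsal neural cells also express, reached 1 FPKM (4.70 FPKM with DAPT, 0.904 with ethanol), and MYF5 was listed at 0 in both treatments. Summed, these 5 markers came to 5.19 FPKM under DAPT, against 1.07 FPKM under ethanol. A level in such a mixed culture cannot tell fewer cells of a type from less RNA per cell.

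Few of the 44 genes were expressed at appreciable levels, and those that were lay on both sides of 0. Of the 19 genes with at least 1 FPKM in 1 treatment, 10 were lower and 9 higher with DAPT by any amount. With DAPT, 16 of the 44 had at least 1 FPKM and 6 had at least 10 FPKM, and with ethanol 15 and 8 did. The other 25 stayed under 1 FPKM in both treatments. Among these 19 genes, 8 were over 2-fold lower with DAPT and 3 over 2-fold higher, while 5.81% and 5.15% of all 13480 genes with that level were over 2-fold lower and higher. Of these 19 genes, 7 reached 1 FPKM in 1 treatment only, and a gene that passes the filter that way tends to differ. The 12 genes with at least 1 FPKM in both treatments held 5 that were over 2-fold lower and none that was over 2-fold higher, beside 3.33% lower and 3.09% higher among the 12383 genes of the table with such levels. The median ratio was -0.73 over the 19 genes and -0.82 over the 12, beside 0.00 for all genes of each filter. With no filter at all, 17 of the 43 genes above 0 in 1 treatment were over 2-fold lower and 6 over 2-fold higher, beside 12.3% lower and 9.77% higher among 20407 genes. These counts take in genes listed at 0 in 1 treatment, which among the 43 was MYOD1.

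**Figure D1:**
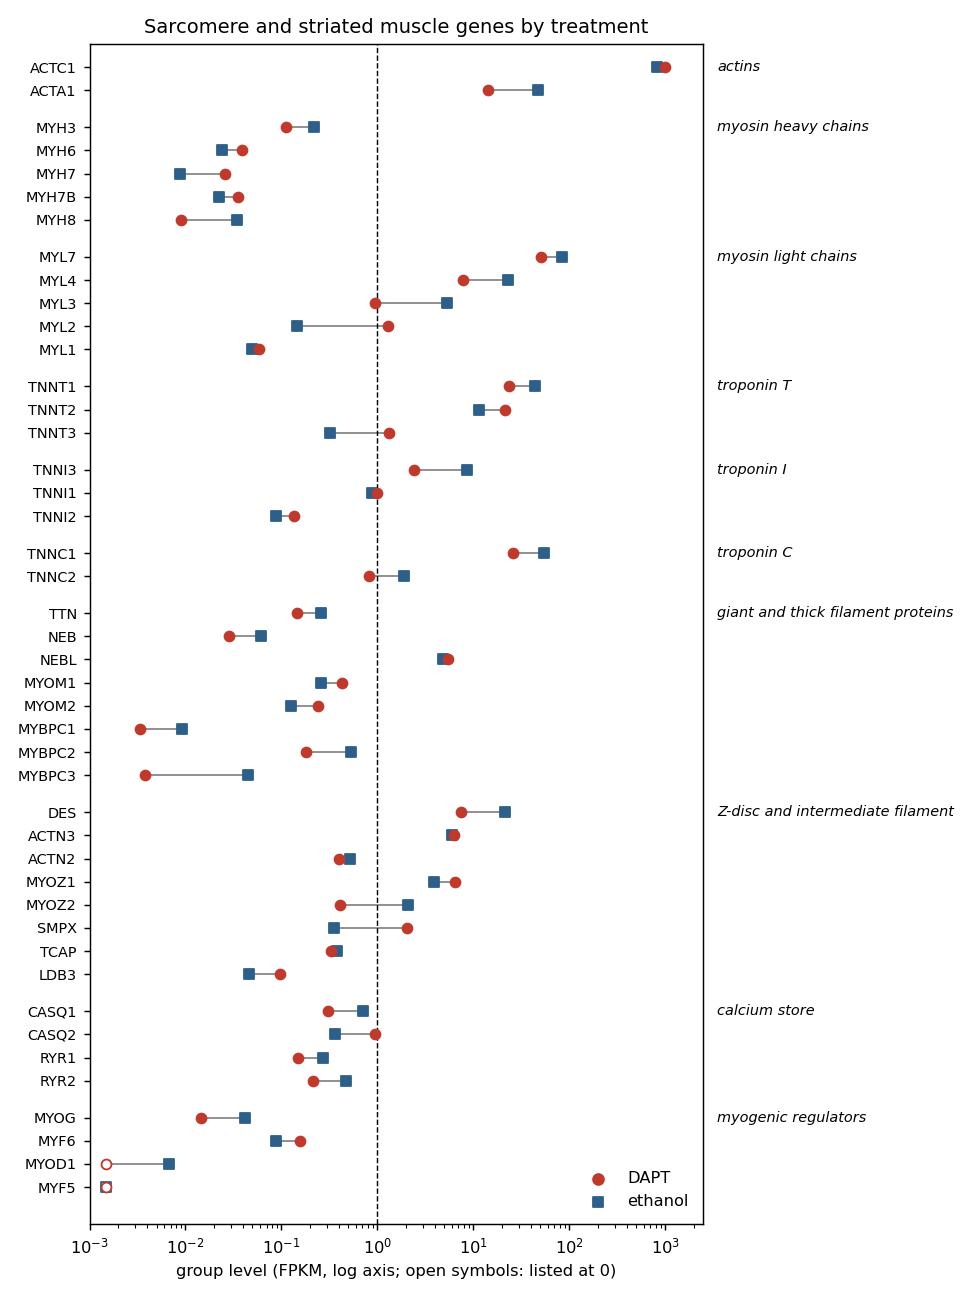
Levels of the 44 genes in FPKM on a log axis, with DAPT as circles, ethanol as squares and a line joining both values of a gene; there is 1 pooled value per treatment and no error bar. ACTC1 lies farthest right (999 FPKM with DAPT, 814 with ethanol), 25 genes lie left of the dashed line at 1 FPKM in both treatments, and MYF5 is listed at 0.

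**Figure D2:**
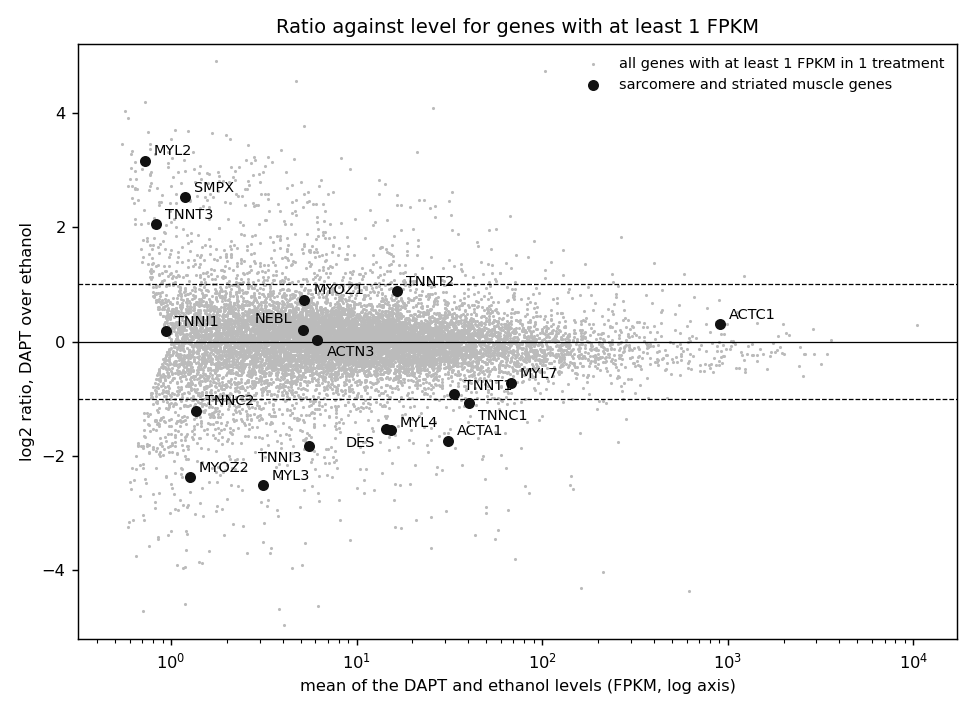
Log2 ratio of DAPT over ethanol against the mean level in FPKM (log axis) for the genes with at least 1 FPKM in 1 treatment; black points are the 19 sarcomere and striated muscle genes, grey points all genes, dashed lines mark 2-fold, and 3 genes lie outside the plotted range. Below the lower dashed line lie 8 black points, from TNNC1 at -1.08 to MYL3 at -2.51, and above the upper line MYL2, SMPX and TNNT3.

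ACTC1 was by far the most abundant of the 44 genes and differed little between treatments, while ACTA1 was over 2-fold lower with DAPT. The coding sequences of the actins are nearly alike, and how fragments that map to several of them were shared out is not known here, so their values are uncertain to that extent. The same holds for MYH6 and MYH7. ACTC1 (chromosome 15, 35080297 to 35087927 of hg19), the cardiac α-actin that embryonic skeletal muscle also makes, had 999 FPKM under DAPT, against 814 FPKM under ethanol, a ratio of 0.30. This put ACTC1 at percentile 99.8 of all rows with DAPT and 99.7 with ethanol. ACTA1 (chromosome 1, 229566993 to 229569843), the skeletal α-actin, had 14.4 FPKM under DAPT, against 47.6 FPKM under ethanol, a ratio of -1.73. The level of ACTC1 was thus 69.6 times that of ACTA1 with DAPT and 17.1 times with ethanol. ACTC1 alone made up 84.4% of the summed level of the 44 genes with DAPT and 71.4% with ethanol, and that sum was 1183 FPKM with DAPT and 1140 with ethanol. Without ACTC1 the other 43 genes summed to 184 FPKM under DAPT, against 326 FPKM under ethanol.

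The promoters of both actin genes and of MYL7, an atrial myosin light chain gene, hold a CArG box, the site that serum response factor binds. The RefSeq table (GRCh38.p14) had promoters of 28 of the 44 genes, and a CArG box stood in the 250 bases before the start in 5 of these genes (ACTC1, ACTA1, MYL7, MYOM1 and LDB3). Some genes have several promoters in the table, and counted by promoter the box was in 16.2% of the 37 promoters of these genes, against 1.16% of all 35116 promoters searched on both strands. A match describes the letters of a promoter and is no evidence of binding. The 130 bases before the start are shown for the 3 expressed genes, because they share this box while their ratios ran from -1.73 for ACTA1 over -0.73 for MYL7 to 0.30 for ACTC1. The box is in capitals. The letters TATAAA also stand in those of ACTA1 and ACTC1. The stretches are chr1:229434095-229434224 for ACTA1, chr15:34795550-34795679 for ACTC1 and chr7:44141333-44141462 for MYL7, all on the minus strand of GRCh38.p14.
ACTA1: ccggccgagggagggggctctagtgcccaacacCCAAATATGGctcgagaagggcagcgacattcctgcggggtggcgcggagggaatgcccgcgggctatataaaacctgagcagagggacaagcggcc
ACTC1: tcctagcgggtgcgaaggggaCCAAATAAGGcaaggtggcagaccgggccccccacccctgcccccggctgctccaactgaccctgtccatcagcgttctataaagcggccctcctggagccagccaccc
MYL7: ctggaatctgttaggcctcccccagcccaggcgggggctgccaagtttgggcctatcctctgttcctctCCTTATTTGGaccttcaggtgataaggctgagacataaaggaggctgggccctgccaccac

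Of the 5 myosin light chain genes, MYL4 and MYL3 were over 2-fold lower with DAPT and MYL2 over 2-fold higher, and MYL7 was the most abundant. MYL7 (chromosome 7, 44178463 to 44180916 of hg19), the atrial regulatory light chain, had 51.2 FPKM under DAPT, against 84.6 FPKM under ethanol, a ratio of -0.73 that stayed within 2-fold. MYL4 (chromosome 17, 45286428 to 45301045), the essential light chain of atrial and embryonic muscle, had 7.78 FPKM under DAPT, against 22.8 FPKM under ethanol, a ratio of -1.55. MYL3 (chromosome 3, 46899357 to 46904973), the essential light chain of ventricle and slow muscle, had 0.936 FPKM under DAPT, against 5.31 FPKM under ethanol, a ratio of -2.51, or -1.71 with 1 FPKM added to both levels. MYL2 (chromosome 12, 111348624 to 111358404), the ventricular and slow regulatory light chain, ran the other way, with 1.30 FPKM under DAPT, against 0.146 FPKM under ethanol. Its ratio of 3.16 was the largest of the 19 genes in absolute size, but its ethanol level is low, and with 1 FPKM added to both levels the ratio was 1.01. MYL1, the fast skeletal essential light chain, was at 0.0585 FPKM under DAPT, against 0.0498 FPKM under ethanol. The 5 light chain genes together came to 61.3 FPKM under DAPT, against 113 FPKM under ethanol.

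The myosin heavy chains among the 44 genes, the partners of these light chains, were all close to 0. None of the 5 genes reached 1 FPKM, and they summed to 0.222 FPKM under DAPT, against 0.309 FPKM under ethanol. MYH3, the embryonic heavy chain, was the highest of the 5 at 0.113 FPKM under DAPT, against 0.219 FPKM under ethanol. The cardiac genes MYH6 (0.0391 FPKM with DAPT, 0.0243 with ethanol) and MYH7 (0.0258 FPKM with DAPT, 0.00870 with ethanol) were lower still, as were MYH7B (0.0353 FPKM with DAPT, 0.0226 with ethanol) and the perinatal MYH8 (0.00896 FPKM with DAPT, 0.0346 with ethanol). At such levels a ratio can rest on very few fragments, and none is read here. The fast skeletal heavy chain MYH2, which is not among the 44, was at 0.0725 FPKM under DAPT, against 0.625 FPKM under ethanol. Of the myosin genes looked at, the most abundant were non-sarcomeric ones, such as the light chain MYL6 at 2164 FPKM under DAPT, against 1958 FPKM under ethanol.

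Troponin genes were expressed for all 3 subunits. Both troponin C genes and TNNI3 were over 2-fold lower with DAPT, and TNNT3 was over 2-fold higher. TNNC2 and TNNT3 reached 1 FPKM in 1 treatment only, and with 1 FPKM added to both levels their ratios of -1.21 and 2.05 were -0.67 and 0.82, within 2-fold. TNNC1 (chromosome 3, 52485107 to 52488057), the calcium-binding subunit of heart and slow muscle, had 25.9 FPKM under DAPT, against 54.8 FPKM under ethanol, a ratio of -1.08. Its fast-muscle paralog TNNC2 was at 0.823 FPKM under DAPT, against 1.90 FPKM under ethanol, a ratio of -1.21. TNNC1 thus lay just outside the 2-fold line, and TNNT1 (-0.91) and TNNT2 (0.88) just inside it.

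In the human genome each troponin T gene has a troponin I gene near it, and the values are given by these 3 pairs. On chromosome 19, TNNT1 (slow skeletal troponin T) had 23.5 FPKM under DAPT, against 43.9 FPKM under ethanol, a ratio of -0.91. TNNI3 (cardiac troponin I), 2.53 kb away, had 2.44 FPKM under DAPT, against 8.62 FPKM under ethanol, a ratio of -1.82. Both genes of this pair were lower with DAPT, although they belong to different muscle types. On chromosome 1, TNNT2 (cardiac troponin T) had 21.5 FPKM under DAPT, against 11.6 FPKM under ethanol, a ratio of 0.88, and TNNI1 (slow skeletal troponin I), 26.1 kb away with LAD1 between them, had 1.00 FPKM under DAPT, against 0.884 FPKM under ethanol, a ratio of 0.18. On chromosome 11, TNNT3 (fast skeletal troponin T) had 1.34 FPKM under DAPT, against 0.322 FPKM under ethanol, a ratio of 2.05, and TNNI2 (fast skeletal troponin I), 77.9 kb away with LSP1 and MIR4298 between them, had 0.136 FPKM under DAPT, against 0.0889 FPKM under ethanol, a ratio of 0.62. The cardiac subunits TNNT2 and TNNI3 therefore ran in opposite directions, while of the slow subunits TNNT1 was lower and TNNI1 differed little. TNNI2 lies far under 1 FPKM and TNNI1 is nearly equal in both treatments, so only on chromosome 19 do both genes of a pair have levels and ratios large enough to set side by side.

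**Figure D3:**
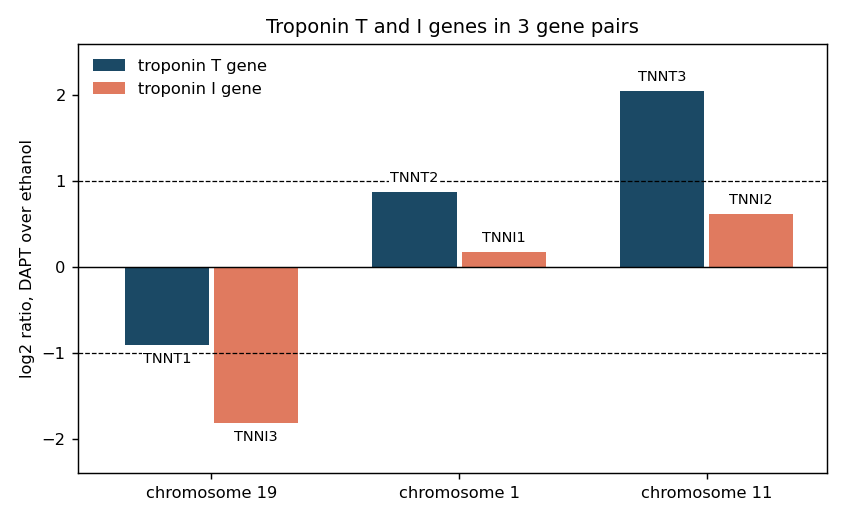
Log2 ratio of DAPT over ethanol for the troponin T and troponin I gene of each pair, by chromosome; bars start at 0, there is no error bar since each treatment has 1 value, and dashed lines mark 2-fold. Both bars point down on chromosome 19 (TNNT1 -0.91, TNNI3 -1.82) and up on chromosome 1 (TNNT2 0.88, TNNI1 0.18) and chromosome 11 (TNNT3 2.05, TNNI2 0.62), where TNNI2 is under 1 FPKM in both treatments.

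Of the genes of the Z-disc and its links, DES and MYOZ2 were over 2-fold lower with DAPT and SMPX over 2-fold higher. MYOZ2 and SMPX reached 1 FPKM in 1 treatment only, and with 1 FPKM added to both levels their ratios were -1.14 for MYOZ2 and 1.16 for SMPX. DES (chromosome 2, 220283099 to 220291461 of hg19), which encodes the muscle intermediate filament desmin, had 7.40 FPKM under DAPT, against 21.3 FPKM under ethanol, a ratio of -1.52. MYOZ2 (chromosome 4, 120056939 to 120108944), a calcineurin-binding Z-disc protein of heart and slow muscle, had 0.409 FPKM under DAPT, against 2.11 FPKM under ethanol, a ratio of -2.37. Its fast-muscle paralog MYOZ1 (chromosome 10, 75391370 to 75401515) had 6.53 FPKM under DAPT, against 3.93 FPKM under ethanol, a ratio of 0.73, so that the level of MYOZ1 was 16.0 times that of MYOZ2 with DAPT and 1.86 times with ethanol. SMPX (chromosome X, 21724090 to 21776278), a small protein of striated muscle, had 2.02 FPKM under DAPT, against 0.352 FPKM under ethanol, a ratio of 2.52. ACTN3, the α-actinin of fast fibres, was nearly equal in both treatments (6.23 FPKM with DAPT, 6.08 with ethanol, ratio 0.03), and ACTN2, the α-actinin of all striated muscle, was at 0.401 FPKM under DAPT, against 0.521 FPKM under ethanol. The Z-disc genes TCAP (0.330 FPKM with DAPT, 0.380 with ethanol) and LDB3 (0.0958 FPKM with DAPT, 0.0463 with ethanol) did not reach 1 FPKM.

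The promoters of SMPX, MYOZ1 and MYOZ2 each hold a MEF2 box, the site of the MEF2 factors of muscle. Such a box stood in the 250 bases before the start in 9 of the 28 genes with a promoter, or in 24.3% of their 37 promoters, against 2.80% of all promoters on both strands. The other 6 genes were MYH8, MYL1, TTN, MYBPC3, CASQ2 and MYF6, all under 1 FPKM, and in MYH8 and MYF6 the box shares bases with a TATAAA. The E-box letters CANNTG, to which myogenic factors bind, were in 73.0% of the 37 promoters and in 61.8% of all promoters. Of the other letters searched, TATAAA was in 24.3% of the 37 promoters and 10.7% of all promoters, CATTCC in 18.9% of the 37 and 11.9% of all, and AGATAA, the letters of a GATA site, in 18.9% of the 37 and 9.17% of all. The 3 sequences are shown with the MEF2 box in capitals because the same kind of box stands before genes with ratios of 2.52, 0.73 and -2.37. The stretches of GRCh38.p14 are chrX:21758117-21758246 for SMPX and chr10:73641475-73641604 for MYOZ1, both on the minus strand, and chr4:119135702-119135831 on the plus strand for MYOZ2.
SMPX: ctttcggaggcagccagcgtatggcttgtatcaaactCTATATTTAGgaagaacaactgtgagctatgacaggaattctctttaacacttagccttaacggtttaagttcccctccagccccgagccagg
MYOZ1: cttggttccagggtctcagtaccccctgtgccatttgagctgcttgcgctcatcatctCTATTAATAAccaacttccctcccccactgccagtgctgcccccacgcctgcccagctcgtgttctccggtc
MYOZ2: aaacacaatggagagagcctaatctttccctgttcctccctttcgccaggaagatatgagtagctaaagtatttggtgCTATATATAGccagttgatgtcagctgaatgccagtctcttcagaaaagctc

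The giant proteins and the proteins that bind the thick filament were nearly all below 1 FPKM. NEBL was the exception at 5.52 FPKM under DAPT, against 4.81 FPKM under ethanol (ratio 0.20). It encodes the nebulin-like protein nebulette of heart and also a shorter product of other tissues, which the table does not separate, and its locus overlaps 2 other rows. NEB, the nebulin gene itself, was at 0.0285 FPKM under DAPT, against 0.0620 FPKM under ethanol. TTN, the titin gene, was at 0.144 FPKM under DAPT, against 0.261 FPKM under ethanol, and its locus in the table takes in 7 other rows. The M-band genes MYOM1 (0.427 FPKM with DAPT, 0.259 with ethanol) and MYOM2 (0.240 FPKM with DAPT, 0.125 with ethanol) were higher with DAPT by less than 2-fold. Of the genes for myosin-binding protein C, only the fast-muscle form MYBPC2 was above 0.1 FPKM (0.181 FPKM with DAPT, 0.535 with ethanol). The slow form MYBPC1 (0.00340 FPKM with DAPT, 0.00923 with ethanol) and the cardiac form MYBPC3 (0.00377 FPKM with DAPT, 0.0453 with ethanol) were lower.

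The calcium store genes were also under 1 FPKM, with opposite directions in the calsequestrins. CASQ2, the cardiac calsequestrin, had 0.940 FPKM under DAPT, against 0.360 FPKM under ethanol, and CASQ1, the skeletal form, had 0.308 FPKM under DAPT, against 0.718 FPKM under ethanol. The share of CASQ2 in their sum was 75.3% with DAPT and 33.4% with ethanol. The ryanodine receptor genes RYR2 of heart (0.212 FPKM with DAPT, 0.472 with ethanol) and RYR1 of skeletal muscle (0.150 FPKM with DAPT, 0.274 with ethanol) were both lower with DAPT in the listed values.

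The 4 myogenic transcription factors, which switch on the skeletal muscle program, summed to 0.171 FPKM under DAPT, against 0.137 FPKM under ethanol. MYF6 accounted for most of this, at 0.156 FPKM under DAPT, against 0.0880 FPKM under ethanol. MYOG, the factor of differentiating myoblasts, was at 0.0147 FPKM under DAPT, against 0.0420 FPKM under ethanol. MYOD1 was listed at 0 with DAPT and at 0.00671 FPKM with ethanol, and MYF5 at 0 in both. The skeletal paralogs ACTA1 and TNNT1 were thus measured at 14.4 and 23.5 FPKM with DAPT and at 47.6 and 43.9 FPKM with ethanol, where these factors were at or near 0.

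Within several families the shares of the paralogs differed between treatments. TNNT2 made up 46.4% of the troponin T sum with DAPT and 20.8% with ethanol, while TNNT1 made up 50.7% with DAPT and 78.6% with ethanol. The troponin T sum itself was 46.2 FPKM under DAPT, against 55.9 FPKM under ethanol. TNNI3 made up 68.2% of troponin I with DAPT and 89.9% with ethanol, in a sum of 3.58 FPKM under DAPT, against 9.59 FPKM under ethanol. MYOZ1 made up 94.1% of the myozenins with DAPT and 65.0% with ethanol, in a sum of 6.94 FPKM under DAPT, against 6.04 FPKM under ethanol. Troponin C kept its proportions, with TNNC1 at 96.9% with DAPT and 96.6% with ethanol, in a sum of 26.7 FPKM under DAPT, against 56.7 FPKM under ethanol. The subunits of the troponin complex were not present in equal amounts as mRNA, since the troponin I sum was well below those of troponin T and troponin C in both treatments.

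**Figure D4:**
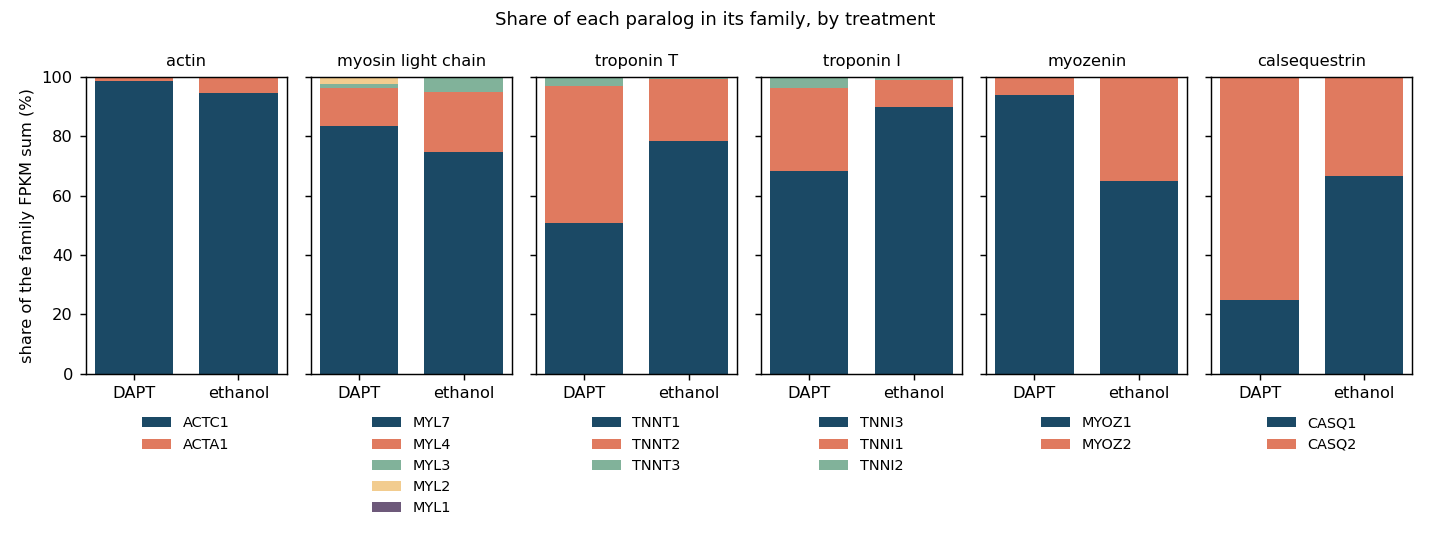
Share of each paralog in the FPKM sum of its family (%), DAPT left and ethanol right in each panel, 1 pooled value per treatment. Of the 6 families drawn, troponin T, troponin I, myozenin and calsequestrin differ most between treatments, for example TNNT2 at 46.4% with DAPT and 20.8% with ethanol, while ACTC1 fills nearly all of the actin panel in both. Both calsequestrin genes are under 1 FPKM in both treatments and MYOZ2 is under 1 FPKM with DAPT, so these shares rest on low levels.

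Genes that work with the sarcomere were described by lists. There were 7 such lists, and the count of each can be read beside the 5.81% lower and 5.15% higher of all genes. The lists overlap, so their counts are not separate results. The genes of the smooth muscle list past 2-fold, TPM1, SYNPO2 and ACTG2, are also counted in other lists. Of 30 myogenic and cardiac regulators, 20 reached 1 FPKM, of which 5 were over 2-fold higher and 4 lower (median ratio 0.05). The cardiac and endodermal factors GATA4 (2.39 FPKM with DAPT, 12.4 with ethanol) and GATA6 (2.70 FPKM with DAPT, 8.18 with ethanol) were lower. ISL1, a factor of cardiac progenitors and of several neural cell types, was higher (12.1 FPKM with DAPT, 5.24 with ethanol). HAND1 (50.0 FPKM with DAPT, 62.1 with ethanol) and SRF, which encodes serum response factor (19.5 FPKM with DAPT, 17.4 with ethanol), stayed within 2-fold.

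Of 32 partners of the thin filament and Z-disc with at least 1 FPKM, 5 were over 2-fold higher and 2 lower (median ratio 0.12). TRIM55, a ubiquitin ligase of the sarcomere, had 53.1 FPKM under DAPT, against 11.5 FPKM under ethanol. FLNC, the muscle filamin, had 20.4 FPKM under DAPT, against 4.80 FPKM under ethanol, and HSPB7, a small heat shock protein of heart, 7.36 FPKM under DAPT, against 2.01 FPKM under ethanol. CRYAB, the chaperone αB-crystallin, was lower at 10.7 FPKM under DAPT, against 37.4 FPKM under ethanol. ANKRD1 (317 FPKM with DAPT, 240 with ethanol) and the tropomyosin gene TPM2 (215 FPKM with DAPT, 281 with ethanol) stayed within 2-fold.

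A list of other actin and myosin genes held mostly cytoskeletal and smooth muscle genes among its 17 with at least 1 FPKM, and also MYLPF, the fast skeletal regulatory light chain (0.957 FPKM with DAPT, 1.37 with ethanol). Of these 17, the enteric smooth muscle actin ACTG2 was lower (7.03 FPKM with DAPT, 15.5 with ethanol) and none was over 2-fold higher (1 with TPM scaling), with a median ratio of 0.12. ACTB, the cytoskeletal β-actin, was at 2384 FPKM under DAPT, against 2768 FPKM under ethanol. In the smooth muscle list, 2 of 12 were over 2-fold higher (1 with 1 FPKM added to both levels) and 1 lower (median ratio 0.19). TPM1, which encodes α-tropomyosin in both striated and smooth muscle, was at 1677 FPKM under DAPT, against 761 FPKM under ethanol, and the smooth muscle genes TAGLN (994 FPKM with DAPT, 908 with ethanol) and MYL9 (362 FPKM with DAPT, 344 with ethanol) stayed within 2-fold. All 13 of these genes were above 0, and they summed to 3895 FPKM under DAPT, against 2793 FPKM under ethanol. Most of the difference between these sums lay in TPM1. A set of 8 smooth muscle markers, all but MYOCD also in this list, had 7 that reached 1 FPKM. It summed to 1370 FPKM under DAPT, against 1185 FPKM under ethanol, and is no separate measure.

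Of 19 calcium handling genes with at least 1 FPKM, 4 were over 2-fold higher and 3 lower (median ratio 0.21). With 1 FPKM added to both levels these counts were 2 higher and 1 lower. SLN, the calcium pump inhibitor sarcolipin of atrium and skeletal muscle, had 46.1 FPKM under DAPT, against 17.2 FPKM under ethanol, while TRDN, the triadin gene whose product ties calsequestrin to the ryanodine receptor, had 1.70 FPKM under DAPT, against 6.15 FPKM under ethanol. The calmodulin genes CALM2 (394 FPKM with DAPT, 315 with ethanol) and CALM3 (226 FPKM with DAPT, 244 with ethanol) stayed within 2-fold. Of 11 muscle energy and natriuretic genes, 1 was higher (0 with 1 FPKM added to both levels) and 1 lower (median ratio -0.38). The lower gene was CKB, the creatine kinase of brain and embryonic heart (41.9 FPKM with DAPT, 239 with ethanol), and the lactate dehydrogenase genes LDHB (533 FPKM with DAPT, 694 with ethanol) and LDHA (470 FPKM with DAPT, 601 with ethanol) stayed within 2-fold. Of 19 genes of the dystrophin complex and costamere, 2 were higher (1 with 1 FPKM added to both levels) and 1 lower (median ratio 0.01). CAV1, the caveolin of many cell types, had 82.2 FPKM under DAPT, against 35.9 FPKM under ethanol, and PARVB, a focal adhesion protein, 4.81 FPKM under DAPT, against 10.7 FPKM under ethanol. ILK (109 FPKM with DAPT, 108 with ethanol) and VCL (79.8 FPKM with DAPT, 97.7 with ethanol) stayed within 2-fold.

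**Figure D5:**
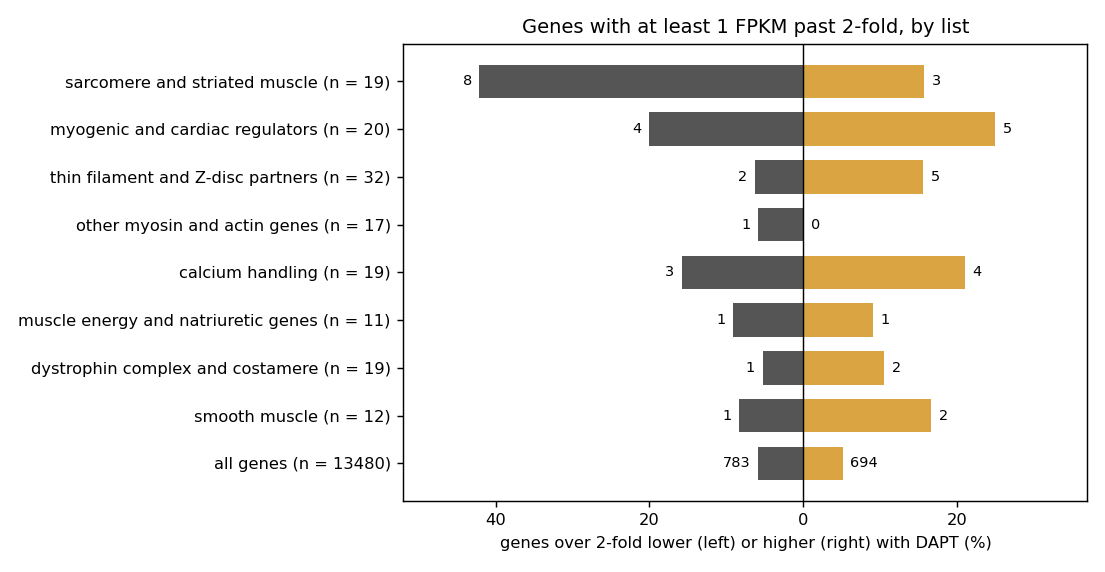
Percent of genes with at least 1 FPKM in 1 treatment that were over 2-fold lower (left) or higher (right) with DAPT, for the sarcomere genes, 7 lists of related genes and all genes; numbers at the bars are gene counts, and n is the number of genes with at least 1 FPKM. The sarcomere genes have 8 lower and 3 higher of 19, and all genes 783 lower and 694 higher of 13480. Some genes are counted in more than 1 list.

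Markers of other cell types also differed between the treatments. The pluripotency markers summed to 163 FPKM under DAPT, against 420 FPKM under ethanol. Of these, POU5F1 and NANOG were over 2-fold lower, and LIN28A and SOX2 stayed within 2-fold. The 4 endothelial markers summed to 19.2 FPKM under DAPT, against 40.4 FPKM under ethanol. Among them KDR was over 2-fold lower (11.2 FPKM with DAPT, 28.7 with ethanol) and CDH5 nearly equal (2.90 FPKM with DAPT, 2.68 with ethanol). The 6 fibroblast markers summed to 1442 FPKM under DAPT, against 1172 FPKM under ethanol. DCN was over 2-fold higher (9.72 FPKM with DAPT, 0.713 with ethanol), PDGFRA over 2-fold lower (3.10 FPKM with DAPT, 8.68 with ethanol), and 4 stayed within 2-fold. None of these markers was at 0 in either treatment. Their part in the sarcomere values was not tested, since the table holds no values per library or per cell.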

How the data were processed

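RNA of H1 cells at day 10 was sequenced by the authors from 3 libraries with DAPT and 3 with ethanol. Stranded poly-A libraries were mapped to hg19 with TopHat 2.0.6, as the submitters' processing notes name, and abundance was computed with Cufflinks. The annotation, the scaling of libraries and the setting for strand are not stated in the methods or labels used here. The deposited values used here are FPKM, computed by the authors as 1 value per treatment. The deposited table also holds the authors' fold changes, test statistics, p-values and q-values, which were not used.

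The log2 ratio of DAPT over ethanol was computed from the FPKM values in Python 3.11.15 with pandas 2.3.3 and numpy 2.4.6, without a pseudocount. Counts past 2-fold were taken over genes with at least 1 FPKM in 1 treatment, and counting was checked on simulated data. FPKM values show no depth, and no library could be left out or weighted. Promoters came from RefSeq (GRCh38.p14), and coordinates of genes from the table (hg19, counted from 1). All 44 genes are given. From each list the text names up to 4 genes past 2-fold with at least 5 FPKM and the 2 most abundant others. A gene that this rule would name is not reported here. NPPB, HAND2, PAX3 and the other cell type markers were named from their own lists. The 44 genes and all lists were chosen with earlier results of these data known.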

Additional observations from a re-analysis of the deposited data

How the results depend on the processing

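No paired analysis was possible because the table gives 1 value per treatment, and for the same reason leaving out each library in turn was not run. With a minimum of 5 FPKM, 0 sarcomere genes were over 2-fold higher with DAPT, 6 were lower and the median ratio was -0.91. With no filter on genes above 0 in both treatments (so without MYOD1) 6 were higher, 16 lower and the median was -0.55. At a fold of 1.5 there were 5 higher and 10 lower, and at a fold of 3 there were 3 higher and 4 lower. The 3 higher at a fold of 3 were MYL2, SMPX and TNNT3, which reached 1 FPKM with DAPT only. With at least 1 FPKM in both treatments, which was chosen after seeing the data, 0 were higher and 5 lower. Also chosen after seeing the data was the sum without ACTC1, whose ratio of -0.82 had the opposite sign of that with ACTC1 (0.05). The main counts were 3 higher and 8 lower. Pseudocounts of 0.1 and 1 FPKM, a minimum of 0.5 FPKM, upper-quartile and TPM scaling and leaving out overlapping rows kept both counts within 1.5 times. TPM scaling shifted the median of all genes by 0.07 and upper-quartile scaling by 0.02. Of 132 further values under the alternatives, 21 moved. Of the 132, 76 were ratios of single genes, of which 15 moved, and the rest were counts of the lists. Whether directions hold cannot be read from these values. The same pseudocount on both levels cannot change the sign of a ratio, the shifts by scaling were small, and a count has no direction. Depth is unknown, so the precision of the genes under 1 FPKM cannot be given.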
